A study of Mus musculus with 32 samples.

Results

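Complex I (NADH:ubiquinone oxidoreductase) is the entry point of electrons from NADH into the mitochondrial respiratory chain. It is an L-shaped assembly in which a matrix arm oxidizes NADH and hands the electrons along iron-sulfur clusters to ubiquinone, and a membrane arm pumps protons across the inner membrane. The catalytic core is surrounded by many small accessory subunits that are needed for its assembly and stability, and in microglia the balance between respiration and glycolysis is known to shift with the activation state. Here the nuclear genes of the complex were followed in microglia of rTg4510 tau transgenic mice and of their wild type (WT) littermates.

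The genes were taken by symbol, as protein-coding genes whose symbols begin with Ndufa, Ndufb, Ndufc, Ndufs or Ndufv, leaving out the assembly factors (Ndufaf) and pseudogenes. The rule takes 41 genes of the RefSeq annotation, and 39 of them were among the 18588 genes measured, so that Ndufa4l2 and Ndufb1 were not analysed here. They comprised 3 core subunits that oxidize NADH, 4 core subunits that lead to the ubiquinone site, 9 accessory subunits of the matrix arm, 19 accessory subunits of the membrane arm and the acyl carrier protein Ndufab1. The rule also took in Ndufa4, which is now assigned to complex IV, and Ndufb4b and Ndufb4c, which by name are copies of Ndufb4. Ndufb4b and Ndufb4c may share reads with Ndufb4, and their values are uncertain for that reason. The mitochondrially encoded subunits mt-Nd1 to mt-Nd6, which form the core of the membrane arm, were not analysed here.

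Microglia had been captured with CD11b beads from pooled forebrains of 8 to 10 female mice per library, at 2, 4, 6 and 8 months of age. rTg4510 mice carry a mutant human tau transgene under a tetracycline-responsive promoter together with a CaMKIIα-driven transactivator, which directs the transgene to forebrain neurons. The WT group, labelled 129/FVB F1, carries neither transgene, and the presence of the transactivator alone was therefore not controlled for. Each genotype was represented by 4 libraries at 2 and at 6 months. At 4 and at 8 months 3 libraries of each genotype remained, since 4 libraries that had failed sequencing QC, 1 of each genotype at both of these ages, were left out. No group of rTg4510 mice in which the transgene had been switched off was used here.

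The values are log2 gene signals, on which every library has the same median of 5.63, and no read totals of single libraries accompany them, so that differences in depth between libraries are unknown and the precision is given by the replicates. A gene was said to rise or fall when the linear model over all 28 libraries gave a Benjamini-Hochberg FDR under 0.05 over all 18588 genes. It was called a differentially expressed gene (DEG) when it also changed by more than 1.5 fold. Over the libraries, 6 of the 7 microglial markers had mean log2 signals from 9.44 (Itgam) to 13.57 (Cx3cr1), and the other, Aif1, was at 6.24, near the library median. Markers of other cells were below the level of Itgam, apart from Slc1a3 and Mrc1, the highest of their lists. Means ran from 2.95 (Syt1) to 3.99 (Snap25) for the neuronal markers. They ran from 3.30 (Aldh1l1) to 9.57 (Slc1a3) for astrocytes and from 6.01 (Cd163) to 9.44 (Mrc1) for border macrophages. In these bulk samples, a smaller share of cells that carry a transcript and less of the transcript per cell cannot be told apart.

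Sequences near the transcription start were searched for 4 motifs known from promoters of mitochondrial genes. RefSeq windows (GRCm38.p6) of 250 bases before to 50 bases after the start were at hand for 34 of the 39 genes, in 36 windows of 300 bases. On either strand, AAGATGG, the core of the YY1 motif, lay in the windows of 7 genes (20.6%), against 6.34% of all 32851 windows and 8.04% of the 11107 protein-coding genes measured that have a window. The 7 sites are shown because they share their place, with AAGATGG in capitals and the sequence given along the gene's own strand.

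Ndufa3, chr7:3617385-3617414, + strand: cgccaagaacAAGATGGccgggagtaagta
Ndufc1, chr3:51408914-51408943, - strand: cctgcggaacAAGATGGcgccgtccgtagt
Ndufs6, chr13:73328433-73328462, - strand: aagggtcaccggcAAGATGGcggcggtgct
Ndufb8, chr19:44555393-44555422, - strand: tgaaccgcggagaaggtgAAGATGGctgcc
Ndufs4, chr13:114388045-114388074, - strand: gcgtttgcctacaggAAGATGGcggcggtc
Ndufs7, chr10:80249463-80249492, + strand: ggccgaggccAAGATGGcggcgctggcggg
Ndufa9, chr6:126849096-126849125, - strand: attgtgggagAAGATGGcggccgccgtccg

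All 7 sites read in the direction of transcription and began 22 to 38 bases after the start. In each of them the ATG within the site is the annotated start codon of the gene (GENCODE M21), so that the same letters are also a translation start. The genes that hold it ranged from Ndufa3, among the members with the highest changes described below, to Ndufa9 and Ndufs7, which rose at no age.

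The other 3 motifs were searched on either strand in the same way. The NRF1 motif GCGCATGC lay in the windows of 3 genes (8.82%, against 2.71% of all windows), the ETS core CCGGAAG in those of 4 genes (11.8% against 8.86%) and the CCAAT box in those of 10 genes (29.4% against 37.4%). Among the protein-coding genes measured, the shares were 5.62%, 18.6% and 42.8% in the same order. The 3 genes with the NRF1 motif, a site that is known from promoters of respiratory chain genes, are given with the motif in capitals. In Ndufa11 the site reads on both strands with an overlap of 6 bases, and the reading of the gene's own strand is marked.

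Ndufa8, chr2:36049327-36049356, - strand: cgctggagacGCATGCGCagatggtaccgg
Ndufa6, chr15:82354355-82354384, - strand: ccgcggtagaGCATGCGCattgcagagccc
Ndufa11, chr17:56717692-56717721, + strand: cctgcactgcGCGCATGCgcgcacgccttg

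The window of Ndufa1, the gene with the largest change, held none of the 4 motifs, and neither did those of Ndufv1 and Ndufv2. The same was so for Ndufa4, Ndufa5, Ndufa7, Ndufa10, Ndufa12, Ndufab1, Ndufb4b, Ndufb5, Ndufb10 and Ndufs5. These matches describe letters within a window and were not tested against the expression data.

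At 2 months, none of the 39 genes differed between rTg4510 and WT microglia (0 rose, against 4.76% of all genes, and 0 fell, against 1.27%). With the limma model, 1 of the 39 was higher at an unadjusted p under 0.05 and 0 were lower, and moderated variances gave 0 in both directions. No gene had all 4 rTg4510 libraries above all 4 WT libraries (7.49% of all genes did), and 0 were higher DEGs (1.58% of all genes). The median log2 fold change was 0.04, beside 0.01 over all genes, with a range from -0.15 to 0.31.

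At 4 months, 18 of the 39 genes rose (46.2%, against 14.1% of all genes) and 0 fell (9.10% of all genes). The model gave 1 gene lower at an unadjusted p under 0.05 (Ndufv1, named after its value was seen) and 0 with moderated variances. The median log2 fold change was 0.34, beside -0.04 over all genes, and 7 genes were higher DEGs (9.47% of all genes). In 26 genes every rTg4510 library lay above every WT library, which was so for 19.1% of all genes.

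At 6 months, the largest number of genes had risen: 30 of 39 (76.9%, against 19.1% of all genes), and 0 fell (14.9% of all genes), also with moderated variances and at an unadjusted p under 0.05. The median log2 fold change was 0.44, beside -0.04 over all genes, and 12 genes were higher DEGs (11.3% of all genes). In 25 genes the libraries of the genotypes did not overlap (18.2% of all genes).

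At 8 months, 19 genes rose (48.7%, against 16.0% of all genes) and 0 fell (9.78% of all genes), with 1 gene, the copy Ndufb4b, lower at an unadjusted p under 0.05 and 0 lower with moderated variances. The median log2 fold change was 0.37, beside -0.01 over all genes, and 6 genes were higher DEGs (10.5% of all genes). Again 25 genes had all rTg4510 libraries above all WT libraries (21.2% of all genes). The counts at 4 and 8 months rest on 3 libraries per genotype. They fell to 9 genes at 4 months without rTg4510 replicate 2 and to 11 without WT replicate 4. At 8 months they fell to 10, 11 and 11 genes without rTg4510 replicate 2, rTg4510 replicate 3 and WT replicate 2, and to 5 and 3 genes at 4 and 8 months when only the libraries of that age were fitted. Ndufa4 and the copies do not carry these counts, as without them 16, 28 and 18 of 36 genes rose at 4, 6 and 8 months and the medians were 0.34, 0.44 and 0.38.

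**Figure D1:**
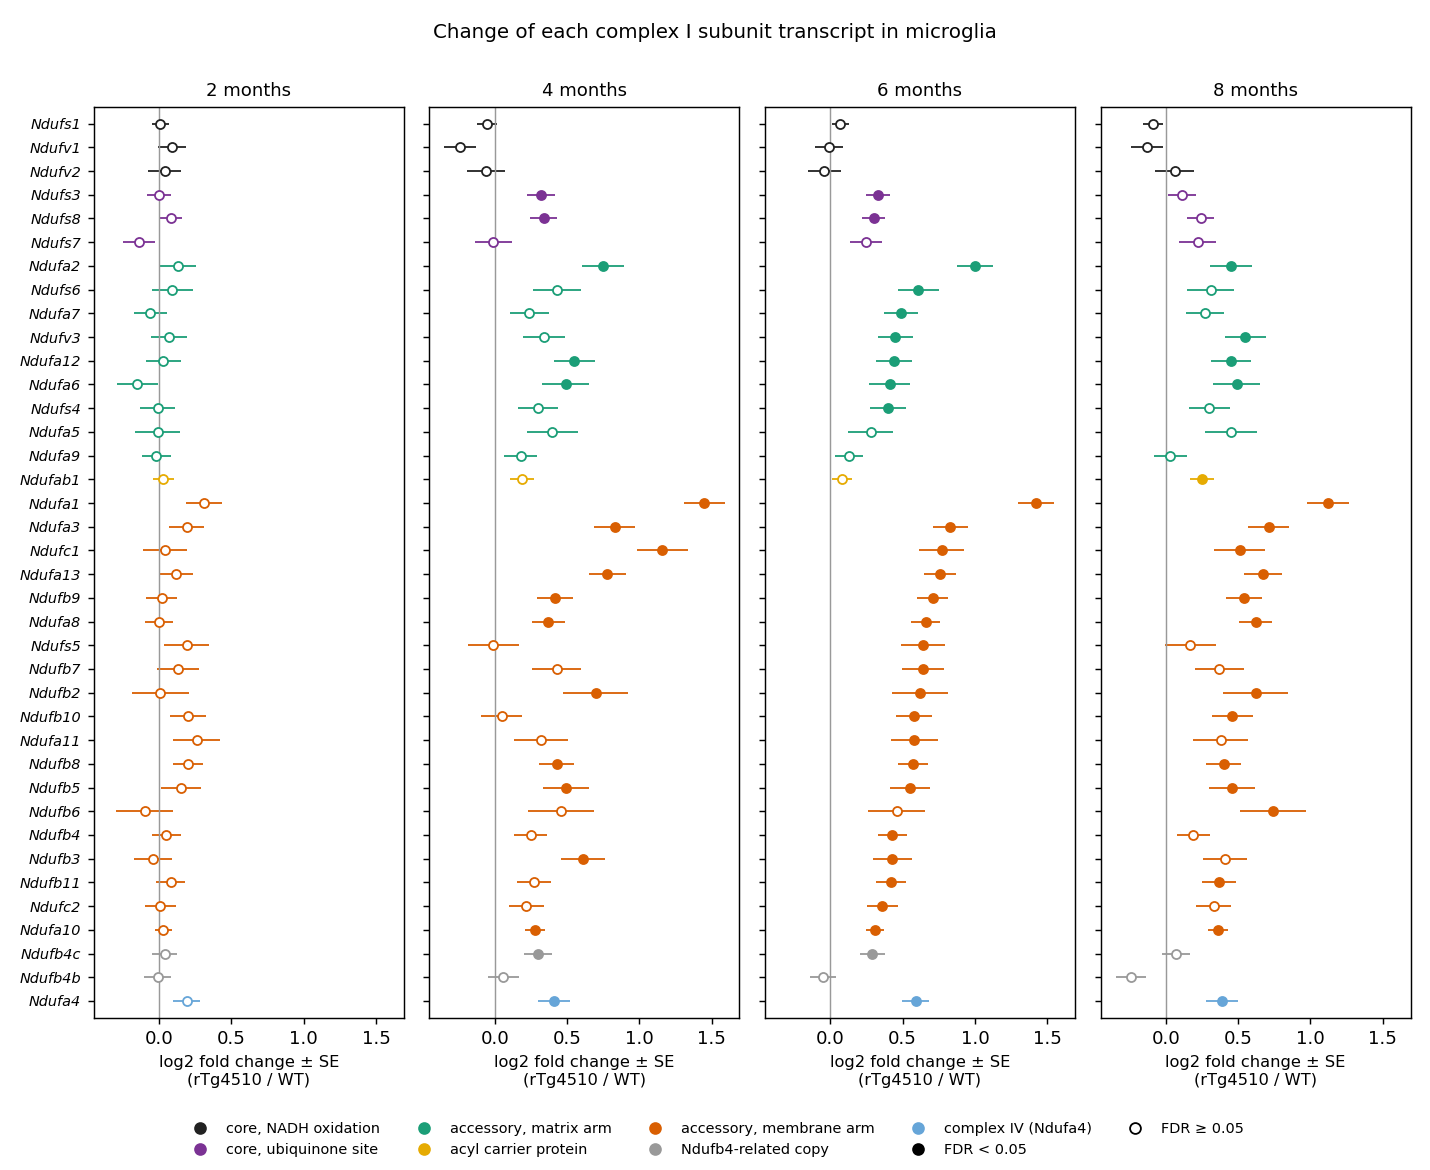
Log2 fold change (rTg4510 over WT) ± SE of 38 of the 39 genes at 2, 4, 6 and 8 months, coloured by role and ordered within a role by the change at 6 months; filled points passed FDR < 0.05. No point is filled at 2 months, 18, 29 and 19 are filled at 4, 6 and 8 months, all to the right of 0, and the 3 core subunits that oxidize NADH lie between -0.24 and 0.09 with no filled point.

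The genes called at the 3 later ages were largely shared. Of the 32 genes that rose at some age, 14 rose at 4, 6 and 8 months: Ndufa1, Ndufa2, Ndufa3, Ndufa4, Ndufa6, Ndufa8, Ndufa10, Ndufa12, Ndufa13, Ndufb2, Ndufb5, Ndufb8, Ndufb9 and Ndufc1. A further 9 rose at 6 months only, among them Ndufa7, Ndufa11, Ndufb4, Ndufb7, Ndufc2, Ndufs4, Ndufs5 and Ndufs6, and every gene that rose at 4 months also rose at 6 months. Ndufb6 and Ndufab1 rose at 8 months only. Ndufv1, Ndufv2, Ndufs1, Ndufs7, Ndufa5, Ndufa9 and Ndufb4b rose at no age.

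Averaged over the 39 genes, the log2 signal of a library was 6.68 to 6.81 in WT and 6.75 to 6.96 in rTg4510 microglia at 2 months, so that the genotypes overlapped. At 4 months it was 6.54 to 6.71 in WT and 6.96 to 7.13 in rTg4510, at 6 months 6.49 to 6.62 and 6.98 to 7.08, and at 8 months 6.43 to 6.55 and 6.79 to 6.87. The genotypes were separate at each of the 3 later ages. The group mean of WT was 6.77, 6.65, 6.56 and 6.48 at the 4 ages, and that of rTg4510 was 6.83, 7.03, 7.02 and 6.84. At 4 and 6 months the separation thus comprised a higher mean in rTg4510 and a lower mean in WT than at 2 months. At 8 months the mean of rTg4510, 6.84, was close to its mean of 6.83 at 2 months, while that of WT was lower. The part of each genotype was not tested on this average.

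**Figure D2:**
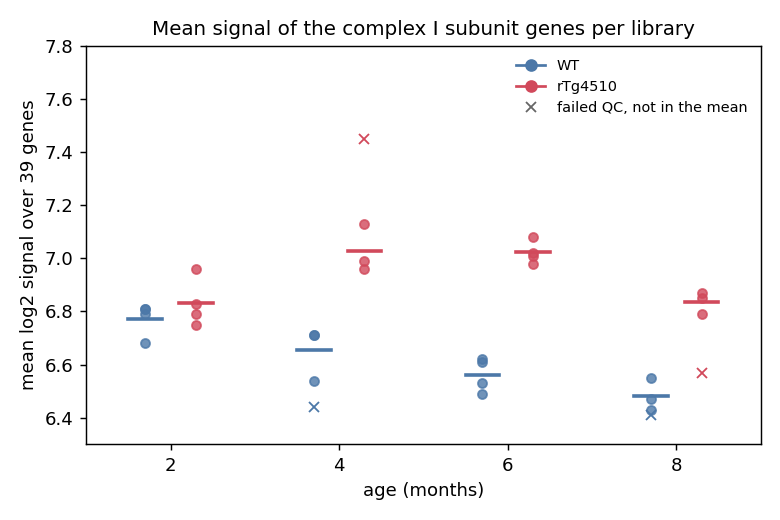
Mean log2 signal over the 39 genes in each library (points), with the group mean (bars), by age; crosses are the 4 libraries that failed QC and are in no mean. The genotypes overlap at 2 months and are separate from 4 months on, and the excluded rTg4510 library at 4 months lies at 7.45, above all others.

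The core subunits that take up electrons from NADH rose or fell at no age. Ndufv1 (Entrez 17995, chr19:4007499-4012755, GRCm38.p6), which binds NADH and the flavin, had log2 signals of 6.10, 6.00, 6.01 and 6.12 in WT and 5.87, 6.08, 5.97 and 6.26 in rTg4510 at 6 months. The groups overlapped and the log2 fold change was -0.01 ± 0.0979 (SE, n = 4 per genotype; limma FDR = 0.937), with a 95% interval from -0.22 to 0.19. At 4 months its rTg4510 libraries, at 6.10, 6.29 and 6.05, all lay below the WT libraries, at 6.35, 6.44 and 6.38, and the change of -0.24 ± 0.113 (95% interval -0.48 to -0.01) did not pass after adjustment (limma FDR = 0.133). It was -0.31 to -0.20 in the fits that left out 1 library. Ndufv2 (Entrez 72900, chr17:66078795-66101559), its iron-sulfur neighbour, had log2 signals of 6.07, 5.94, 5.97 and 5.67 in WT and 5.70, 5.97, 6.02 and 5.79 in rTg4510 at 6 months. Its log2 fold change there was -0.04 ± 0.115 (95% interval -0.28 to 0.20), and over the other ages it lay between -0.06 and 0.06. Ndufs1, the largest subunit, which carries several iron-sulfur clusters, changed by 0.01, -0.05, 0.07 and -0.09 at the 4 ages, with an SE of 0.0596 or 0.0688. At 6 months its 95% interval ran from -0.05 to 0.19, and the intervals of all 3 genes lay below 0.44, the median change of the 39 genes.

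Core subunits closer to ubiquinone changed by a moderate amount. At 6 months Ndufs3 rose by 0.33 ± 0.0854 and Ndufs8, which carries iron-sulfur clusters, by 0.30 ± 0.0808 (limma FDR = 0.0045 and 0.00651). Ndufs7, which lines the ubiquinone site, was at 0.25 ± 0.110 and did not pass (limma FDR = 0.0818). At 4 months Ndufs3 and Ndufs8 rose, by 0.32 and 0.34. At 8 months the changes of Ndufs3, Ndufs7 and Ndufs8 were 0.11, 0.22 and 0.24, and none of the 3 passed with limma (FDR = 0.485, 0.235 and 0.0663).

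Among the accessory subunits of the matrix arm, 3, 7 and 4 of 9 genes rose at 4, 6 and 8 months, with medians of 0.40, 0.44 and 0.45. Ndufa2 (Entrez 17991), a small subunit with a thioredoxin-like fold, had the largest change. Its log2 signals at 6 months were 6.20, 6.70, 6.58 and 6.57 in WT and 7.49, 7.53, 7.50 and 7.53 in rTg4510. The rTg4510 libraries were nearly equal and all above WT, at 1.0 ± 0.124 or 2.0-fold (limma FDR = 1.53e-06). At 4 months WT was at 7.05, 6.94 and 6.60 and rTg4510 at 7.45, 7.79 and 7.58, a rise of 0.75 ± 0.143 (limma FDR = 0.000494). At 8 months WT was at 6.67, 6.83 and 6.64 and rTg4510 at 7.01, 7.31 and 7.18, a rise of 0.45 ± 0.143 (limma FDR = 0.0228). This last call did not hold without rTg4510 replicate 2 or 3 or WT replicate 1 or 3 of that age, where the change was 0.38, 0.45, 0.43 and 0.42.

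The other accessory genes of the matrix arm were lower in their changes. Ndufs6, a zinc-binding subunit, rose by 0.61 ± 0.142 at 6 months, Ndufa7 by 0.49, Ndufv3 by 0.45, Ndufa12 by 0.44, Ndufa6 by 0.41 and Ndufs4, whose loss causes a Leigh-like encephalopathy in mice, by 0.40 ± 0.122. Ndufa5 was at 0.28 ± 0.154 and Ndufa9, which sits where the arms meet, at 0.13 ± 0.0999, and neither passed. Ndufab1, the acyl carrier protein, which is attached to both arms and also serves mitochondrial fatty acid synthesis, was at 0.08 ± 0.0709 at 6 months and rose by 0.25 ± 0.0819 at 8 months (limma FDR = 0.0285, and 0.109 with the replicate number as a block).

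The accessory subunits of the membrane arm held the largest changes: 11, 18 and 13 of 19 genes rose at 4, 6 and 8 months, with medians of 0.43, 0.58 and 0.46. The exception at 6 months was Ndufb6, at 0.46 ± 0.196 (limma FDR = 0.077). Ndufa1 (Entrez 54405, chrX:37187588-37191238), a small membrane protein needed for assembly of the complex, changed the most. At 2 months its log2 signals were 7.21, 6.53, 7.04 and 7.21 in WT and 7.19, 7.33, 7.22 and 7.47 in rTg4510, overlapping (0.31 ± 0.125, limma FDR = 0.202). WT replicate 2 was the low library there, and without it the change was 0.15.

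From 4 months on, the Ndufa1 libraries of the genotypes were far apart. At 4 months WT was at 6.78, 6.82 and 6.70 and rTg4510 at 8.09, 8.43 and 8.14, a rise of 1.45 ± 0.144 or 2.73-fold (limma FDR = 1.48e-07). At 6 months WT was at 6.47, 6.68, 6.80 and 6.85 and rTg4510 at 8.12, 8.15, 8.05 and 8.18, a rise of 1.42 ± 0.125 (limma FDR = 1.03e-08). At 8 months WT was at 6.85, 6.78 and 6.68 and rTg4510 at 7.88, 8.10 and 7.70, a rise of 1.12 ± 0.144 (limma FDR = 3.44e-06). The lowest rTg4510 value at these ages, 7.70, was above the highest WT value, 6.85. The library of rTg4510 that failed QC at 4 months was at 10.31, and with all 32 libraries the change at 4 months was 2.10.

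Ndufc1 (Entrez 66377, chr3:51405479-51408955), another small membrane subunit, had log2 signals of 6.51, 6.17, 6.44 and 6.18 in WT and 6.35, 6.34, 6.45 and 6.33 in rTg4510 at 2 months. They overlapped, with a change of 0.04 ± 0.154. At 4 months WT was at 6.03, 5.94 and 5.42 and rTg4510 at 6.91, 7.04 and 6.91, all above WT, a rise of 1.16 ± 0.178 or 2.23-fold (limma FDR = 3.94e-05). At 6 months WT was at 6.04, 5.98, 6.62 and 5.78 and rTg4510 at 6.87, 6.75, 7.13 and 6.73, a rise of 0.77 ± 0.154 (limma FDR = 0.000499). At 8 months the rise was 0.51 ± 0.178 (limma FDR = 0.0375), a call that did not hold in 5 of the 6 fits without a library of that age (all but the one without WT replicate 1), where the change was 0.40 to 0.54.

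Ndufa3 (Entrez 66091, chr7:3617347-3620165), a single-pass membrane subunit, had log2 signals at 6 months of 5.84, 5.69, 5.90 and 5.79 in WT and 6.68, 6.53, 6.60 and 6.75 in rTg4510. The genotypes were separate, with a rise of 0.83 ± 0.123 or 1.78-fold (limma FDR = 1.59e-05), and the changes at 2, 4 and 8 months were 0.19, 0.83 and 0.71. Ndufa13 (Entrez 67184, chr8:69894163-69902558), also known as GRIM-19 and as a partner of STAT3, was at 7.0, 6.87, 6.84 and 6.92 in WT and 7.53, 7.68, 7.86 and 7.60 in rTg4510 at 6 months. It rose by 0.76 ± 0.112 or 1.69-fold (limma FDR = 1.56e-05), and its changes at 2, 4 and 8 months were 0.12, 0.78 and 0.67. Both genes passed at 4 and 8 months as well. When only the libraries of that age were fitted, Ndufa3 passed at neither 4 nor 8 months, and Ndufa13 passed at 8 but not at 4 months.

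**Figure D3:**
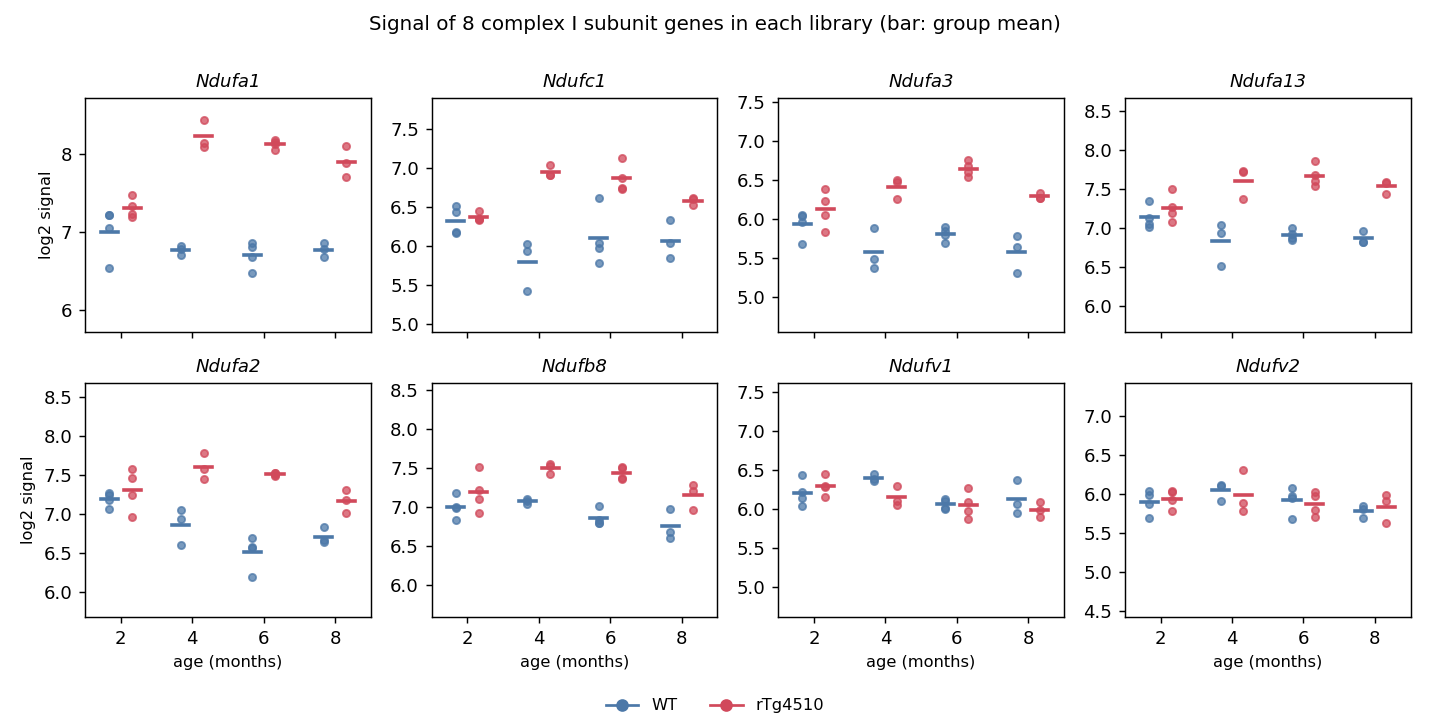
Log2 signal of 8 genes in each of the 28 libraries, by age, in WT (blue) and rTg4510 (red), with the group mean as a bar; all panels span the same log2 range. The genotypes overlap at 2 months and separate from 4 months on for Ndufa1, Ndufc1, Ndufa3, Ndufa13 and Ndufa2, whereas Ndufv1 and Ndufv2 overlap at 6 and 8 months.

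Ndufb8 (Entrez 67264, chr19:44548571-44555442), a membrane arm subunit that is often blotted as a marker of assembled complex I, had one of the 3 smallest FDRs at 2 months. Its log2 signals there were 6.99, 7.0, 6.83 and 7.18 in WT and 6.93, 7.10, 7.52 and 7.22 in rTg4510, which overlapped (0.20 ± 0.105, limma FDR = 0.378). At 6 months WT was at 6.80, 6.84, 6.80 and 7.01 and rTg4510 at 7.37, 7.36, 7.50 and 7.51, separate, with a rise of 0.57 ± 0.105 (limma FDR = 0.000195). At 8 months the groups touched, with WT up to 6.98 and rTg4510 down to 6.97, and the rise of 0.40 ± 0.121 (limma FDR = 0.0192, and 0.0766 with the replicate number as a block) did not hold without rTg4510 replicate 1 or 2 or WT replicate 1 or 2, where it was 0.37, 0.33, 0.36 and 0.32.

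Of the remaining membrane arm genes, Ndufb9, which binds the acyl carrier protein, rose by 0.71 ± 0.107 at 6 months (limma FDR = 1.85e-05) and Ndufa8 by 0.66 ± 0.0997 (limma FDR = 2.22e-05). Ndufa8, Ndufb7, Ndufb10 and Ndufs5 are the subunits that face the intermembrane space with twin cysteine motifs. At 6 months all 4 rose, by 0.66, 0.64, 0.58 and 0.64. At 4 months only Ndufa8 of these passed (0.37), and the others were at 0.43, 0.05 and -0.01. Ndufb10 and Ndufs5 were thus near 0 at 4 months, and were picked out after their values were seen. Their effects at 6 months were higher by 0.54 and 0.65, but neither difference passed (limma FDR = 0.378 and 0.403). Ndufb10 was at 7.05 to 7.38 in rTg4510 at 4 months and 7.01 to 7.29 at 6 months. In WT it was at 7.06 to 7.23 and 6.31 to 6.70.

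The remaining members are not subunits in the strict sense. Ndufa4 (Entrez 17992, chr6:11900372-11907450), the complex IV subunit, was at 7.63, 7.20, 7.53 and 7.31 in WT and 7.53, 7.58, 7.78 and 7.53 in rTg4510 at 2 months (0.19 ± 0.0951, limma FDR = 0.335). At 6 months WT was at 7.09, 7.11, 7.18 and 7.03 and rTg4510 at 7.69, 7.81, 7.75 and 7.50, all above WT, a rise of 0.59 ± 0.0951 (limma FDR = 4.77e-05). The calls at 4 and 8 months (0.41 and 0.39) each did not hold without 2 of the 6 libraries of that age. The copy Ndufb4b (Entrez 100042503, chr19:25033108-25033578) was at 9.63, 9.88, 9.86 and 9.48 in WT and 9.77, 9.59, 9.64 and 9.66 in rTg4510 at 6 months, overlapping, with a change of -0.05 ± 0.0916. Its call depended on the scaling: the change was -0.29 with quantile normalization, where it passed as lower. Ndufb4c, a protein-coding gene in RefSeq but a processed pseudogene in GENCODE M21, rose at 4 and 6 months, by 0.30 and 0.29. Neither call held with the replicate number as a block (limma FDR = 0.128 and 0.068). For comparison, Ndufb4 itself rose at 6 months, by 0.43 ± 0.099. Of 3 complex I pseudogenes in the table, Ndufs5-ps rose at 6 months, by 0.62 ± 0.127, and may share reads with Ndufs5.

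The change of the genotype effect with age was tested directly. Between 2 and 4 months, the effect grew in 4 of the 39 genes, against 5.26% of all genes, and these were Ndufa1 (difference of the log2 fold changes 1.14 ± 0.191, limma FDR = 0.000708), Ndufc1 (1.12 ± 0.235, FDR = 0.00478), Ndufa13 (0.66 ± 0.172, FDR = 0.0214) and Ndufa3 (0.64 ± 0.189, FDR = 0.0432). All 4 are accessory subunits of the membrane arm. With the replicate number as a block, the calls of Ndufa13 and Ndufa3 did not hold (limma FDR = 0.0801 and 0.0806). The count was 2 without WT replicate 4 at 4 months and 7 without rTg4510 replicate 3 at 2 months. Between 4 and 6 months 0 of the 39 genes differed in their effect (0.172% of all genes did, in either direction; 2 genes were higher at an unadjusted p under 0.05, and limma with moderated variances gave 0). Between 6 and 8 months 0 did as well, as for all genes (0.00%), with 1 gene lower at an unadjusted p under 0.05 and 0 with moderated variances. Fewer genes were called at 8 than at 6 months, but no gene passed the test of that difference.

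Within WT, 0 of the 39 genes changed between neighbouring ages: between 2 and 4 months (0.0861% of all genes did), 4 and 6 months (0.113%) and 6 and 8 months (0.00%), with moderated variances as well. At an unadjusted p under 0.05, 9, 8 and 1 genes were lower and 1, 0 and 0 higher at the later age, and the median differences were -0.12, -0.11 and -0.07. Within rTg4510, 4 of the 39 genes rose between 2 and 4 months, a share close to that of all genes (9.73%). Ndufa1 rose by 0.92 ± 0.135, Ndufc1 by 0.59 ± 0.166, Ndufb9 by 0.35 and Ndufa10 by 0.23 (limma FDR = 6.94e-05, 0.0187, 0.0482 and 0.0198). This count was 1 without rTg4510 replicate 2 at 4 months, 2 without rTg4510 replicate 1 at 2 months and 7 without rTg4510 replicate 3 at 2 months. Between 4 and 6 months (1.73% of all genes changed) and between 6 and 8 months (0.00538%), 0 of the 39 genes changed, also with moderated variances. At an unadjusted p under 0.05, 1 and 12 genes were lower. Shares of all genes at the unadjusted p are not given here, so the unadjusted counts in WT and rTg4510 are not read as particular to the 39 genes.

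Genes with short coding sequences had the larger changes. The coding length, that of the longest coding sequence annotated for a gene, was known for 37 of the 39 genes (GENCODE M21, none for Ndufb4b and Ndufb4c). Which transcript the microglia used was not examined. The median was 447 bases, from 210 in Ndufa1 to 2181 in Ndufs1, beside 1386 bases over 13681 protein-coding genes. Across these 37 genes, the log2 fold change at 6 months was lower at greater log2 coding length (Pearson r = -0.664, Spearman rho = -0.645). Over the 13681 protein-coding genes the same measures were -0.157 and -0.204. The genes share libraries and are not independent, so that these values describe the 6-month contrast and carry no test.

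Within length classes the 39 genes and all protein-coding genes can be set side by side. Below 300 bases of coding sequence, 4 of the members (Ndufa1, Ndufc1, Ndufa4 and Ndufa2) had a median change of 0.89, and 244 protein-coding genes one of 0.36. From 300 to 600 bases it was 0.55 for 23 members and 0.19 for 1473 genes, from 600 to 1200 bases 0.28 for 6 members and 0.02 for 4007 genes, and from 1200 bases on 0.18 for 4 members and -0.09 for 7957 genes. The median of the members was thus above that of the protein-coding genes in every class, and in both sets the median was lower in each longer class. The first and last classes hold only 4 members each.

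**Figure D4:**
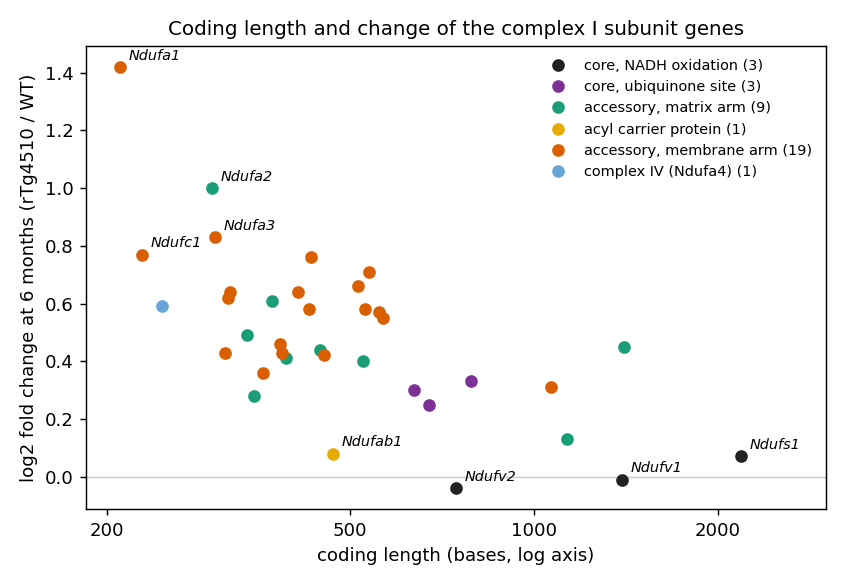
Log2 fold change at 6 months against coding length (log axis) for 36 of the 37 genes with a known coding length, coloured by role. Ndufa1, at 210 bases, lies highest at 1.42, and Ndufs1, at 2181 bases, lies at 0.07; Ndufab1 is a short gene with a small change and Ndufv3 a long one with a change of 0.45.

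The other complexes of the respiratory chain rose as well, as lists of genes that share the same libraries. Of 10 subunit genes of complex IV (cytochrome c oxidase), 0 rose at 2 months (5 were higher at an unadjusted p under 0.05, and limma with moderated variances gave 0) and 10 rose at each of 4, 6 and 8 months, with median changes of 0.18, 0.74, 0.76 and 0.71. Cox4i1 was the highest of them at 6 months, at 1.28 ± 0.0808. Of 15 genes of complex V (ATP synthase), 5, 15, 15 and 13 rose at the 4 ages, with medians of 0.18, 0.60, 0.66 and 0.47. Of 9 genes of complex III, 1, 6, 7 and 5 rose, where Uqcrh, which rose at all 4 ages, was at 0.47, 0.96, 0.94 and 1.0. Of the 4 genes of complex II (succinate dehydrogenase), 0, 2, 4 and 1 rose, with Sdhb at 0.57 ± 0.0803 at 6 months. Complex I and II had the lowest medians among the complexes at 4 and 6 months, and whether the complexes differ was not tested.

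The genes that assemble complex I and regulate mitochondrial biogenesis are given beside the subunits, and whether the lists differ was not tested. Of 16 assembly factors measured, 0 rose at 2, 4 and 8 months, with 0, 0 and 1 gene higher at an unadjusted p under 0.05 in the limma model and 0 with moderated variances. At 6 months Dmac1 and Ndufaf8 rose (0.67 ± 0.134 and 0.63 ± 0.168) and Tmem186 and Foxred1 fell by 0.50 and 0.49, and the median over the 16 was -0.05. Tmem126b fell by 0.48 at 2 months. Of 15 regulators of mitochondrial biogenesis, Ppargc1b, which encodes the coactivator PGC-1β, rose at all 4 ages, by 0.64 ± 0.172, 1.09 ± 0.198, 1.13 ± 0.172 and 1.69 ± 0.198 (limma FDR = 0.0269, 0.000277, 2.23e-05 and 9.9e-07). Gabpa, a subunit of the ETS factor NRF-2, rose at 8 months, by 0.26 ± 0.066, and the other 13 passed at no age. The median of the 15 was -0.06, -0.06, -0.04 and -0.15.

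Ribosomal protein genes are encoded in the nucleus as well, and those of the cytosolic ribosome rose in the same contrasts. Of 76 genes of the cytosolic ribosome, 71, 75, 75 and 75 rose at 2, 4, 6 and 8 months, with medians of 0.51, 1.05, 1.25 and 1.17. Of 78 genes of the mitochondrial ribosome, 2, 11, 19 and 10 rose and 0, 1, 0 and 1 fell, with medians of 0.04, 0.16, 0.18 and 0.13. The shares that rose were 2.56%, 14.1%, 24.4% and 12.8%, beside 4.76%, 14.1%, 19.1% and 16.0% of all genes. At 2 months, therefore, genes of the cytosolic ribosome had risen while 0 of the 39 complex I genes had, although the difference between the lists was not tested.

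**Figure D5:**
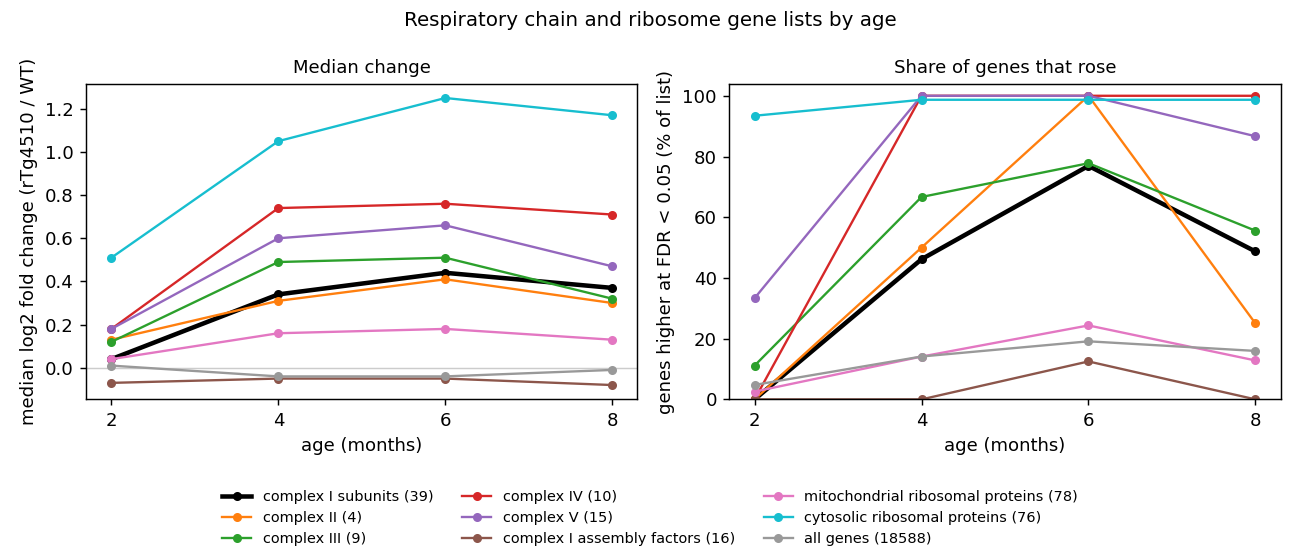
Median log2 fold change (left) and share of genes that rose at FDR < 0.05 (right) at each age, for the complex I genes and other lists, with the number of genes in parentheses. Complex I lies at 0.04, 0.34, 0.44 and 0.37, below complexes IV and V at every age, while the assembly factors stay just below 0.

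Markers of other cells differed between the genotypes at the same ages. All 5 neutrophil markers (S100a8, S100a9, Ngp, Camp and Ltf) fell at 6 and 8 months, with medians of -2.02 and -1.67. At 4 months their median was -1.24 and 0 passed, although all 5 were lower at an unadjusted p under 0.05 and 3 passed with moderated variances in limma. Their summed level at 6 months, on the log2 scale, was 8.80 to 10.21 in WT and 7.18 to 7.91 in rTg4510 libraries, which did not overlap. At 2 months, before any complex I gene rose, their median was 0.11. Of 7 microglial markers, 3, 3, 4 and 4 fell and 0, 1, 2 and 1 rose at the 4 ages. At 6 months Tmem119 was at -0.78, Itgam, which encodes the CD11b used for capture, at -0.62 and Aif1 at 0.36, and the summed level of the 7 was 14.93 to 15.08 in WT and 14.57 to 14.79 in rTg4510.

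The remaining marker lists had from 0 to 3 calls each at 6 months. Snap25 fell among 3 neuronal markers (summed level 4.78 to 6.10 in WT and 3.84 to 5.34 in rTg4510). Gfap rose by 1.52 and Aqp4 and Slc1a3 fell among 5 astrocyte markers (10.18 to 10.43 and 9.48 to 9.76). Flt1 rose and Pecam1 and Cdh5 fell among 4 endothelial markers (6.63 to 7.40 and 6.68 to 7.07). Lyve1 fell among 5 border macrophage markers (10.20 to 10.76 and 9.92 to 10.32), and Ly6c2 fell among 3 markers of monocytes and T cells (6.76 to 7.49 and 6.53 to 7.62). Of 6 oligodendrocyte markers (7.85 to 8.17 and 7.38 to 7.81), 0 passed in limma, with or without moderated variances, and 0 had an unadjusted p under 0.05.

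At 8 months some of these levels were spread more widely. The summed level of the oligodendrocyte markers was 7.97 to 10.52 in WT and 7.82 to 9.53 in rTg4510, that of the astrocyte markers 10.29 to 11.46 and 9.62 to 10.11, and that of the neutrophil markers 9.80 to 10.21 and 7.55 to 8.89. Mag fell by 0.55, Gfap rose by 1.80, Aqp4 and Slc1a3 fell, Flt1 rose and Pecam1 fell. The part of these shifts in the changes of the complex I genes was not tested.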

How the data were processed

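Libraries were grouped by the genotype, age and replicate number in their labels. The authors deposited 1 table of log2 gene signals for 32 libraries. Per the Methods, exon reads were summed over runs, exons under 10 counts in over 80% of the samples were dropped, exons were combined by a robust linear model and the log2 signals were median normalized. The build was GRCm38 per the submitters' processing notes, and the aligner, the annotation and the treatment of reads matching several genes are not given in the sources used here. No depth per library accompanies the signals. A total of 28 libraries entered the fit, without the 4 that failed QC, and 0 columns of values were left unused.

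Entrez numbers were matched to RefSeq symbols (17828 of 18588). For every gene a linear model with 8 group means, unmoderated variances and 20 residual degrees of freedom was fitted with limma 3.58.1 in R 4.3.3, with contrasts of genotype at each age, of age within genotype and of their interaction, and Benjamini-Hochberg adjustment over all genes. The script was tested on simulated data. Each library is a pool of animals, and nothing else says what a replicate number shares. Members and lists were chosen with earlier results of these data known. All members were counted and named, except 1 whose values are not reported here, and values per library were given for the 5 highest and 3 lowest changes at 6 months, the 3 smallest FDRs at 2 months and members called in an interaction. The labels do not say that same-numbered libraries share a batch, so the replicate number was used as a block in an alternative only. Other alternatives were moderated variances, the libraries of 1 age, all 32 libraries, quantile normalization, centring on highly expressed protein-coding genes, a filter at the 25th percentile of signal, and leaving out each library. Coding lengths are those of the longest coding sequence annotated for a gene in GENCODE M21, and motifs were searched in Python 3.11.15.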

Additional observations from a re-analysis of the deposited data

Results flagged for a closer look

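In 4 genes the genotype effect differed between 2 and 4 months by the test of that difference: the log2 fold change was higher at 4 months by 1.14 in Ndufa1, 1.12 in Ndufc1, 0.66 in Ndufa13 and 0.64 in Ndufa3 (limma, Benjamini-Hochberg FDR = 0.000708, 0.00478, 0.0214 and 0.0432). With the replicate number as a block, the FDRs of Ndufa13 and Ndufa3 were 0.0801 and 0.0806. In each of the 4 every rTg4510 library lay above every WT library at 4 months, and the groups overlapped at 2 months. At 4 months 26 of the 39 genes were separate in this way, and 19.1% of all genes. The 4 genes were picked from these same libraries, so this describes them and is no further support.

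In 2 of 44 groups of 4 libraries examined, 1 library lay far from the others by Dixon's criterion, which flags about 5% of groups by chance. Ndufc1 was at 6.45 in rTg4510 replicate 3 at 2 months, and at 6.33 to 6.35 in the others. The mean log2 signal of the 39 genes was 6.68 in WT replicate 2 at 2 months, and 6.79 to 6.81 in the others.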

How the results depend on the processing

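The results were compared across 35 alternatives, 28 of which left out 1 library each. These were the counts, the medians and the changes of the named genes, those with values per library. Of the medians and the changes, 0 reversed. A count could by its rule only stay or move, and the median at 2 months was too small for a reversal to be counted, so neither can show this. A change of sign between fits that both made no call was not counted as a reversal. Ndufa10, which rose at 4 months, was not among the named genes, and its log2 fold change there ranged from -0.14 to 0.32 over the alternatives. The changes of the named genes gave 1400 comparisons with the reported value, of which 1364 stayed on the same side of the threshold, 33 lost and 3 gained a call. At 2 months 0 genes rose in any alternative, and 12 genes rose in every alternative at 6 months, against 2 at 4 months and 2 at 8 months. With only the libraries of an age, 5 genes rose at 4 months (2 DEGs) and 3 at 8 months (2 DEGs). With all 32 libraries, 18 rose at 6 months and 5 at 8 months, the DEGs at 4 months were 15, the medians at 4 and 8 months were 0.44 and 0.29, and the effect grew between 2 and 4 months in 2 genes. With quantile normalization 1 gene fell at 6 and 1 at 8 months, and with centring on highly expressed genes 1 fell at 8 months, in each case Ndufb4b, at -0.29, -0.45 and -0.29. That centring shifted the libraries by -0.11 to 0.04. The cause of these differences was not tested.

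Leaving out 1 library gave, at 4, 6 and 8 months in order, 9 to 19, 27 to 31 and 10 to 21 rising genes, 5 to 9, 10 to 16 and 4 to 7 DEGs, and medians of 0.28 to 0.38, 0.39 to 0.49 and 0.32 to 0.41. The interaction between 2 and 4 months counted 2 to 7 genes, and rTg4510 at 4 against 2 months 1 to 7.

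With the replicate number as a block, 16, 29 and 15 genes rose at 4, 6 and 8 months (18, 30 and 19 without it). Of these, 15, 29 and 14 rose in both fits. The interaction between 2 and 4 months then called 3 genes, Ndufa1, Ndufc1 and Ndufb3. Ndufb3 was called only with the block (limma FDR = 0.018, and 0.0563 without it). With the block, Ndufa13 and Ndufa3 had limma FDRs of 0.0801 and 0.0806. Same-numbered libraries of the genotypes deviated together at 6 months (r = 0.131 to 0.153) and 8 months (r = 0.15 to 0.291), where each correlated best with its own number. At 2 months same-numbered libraries had r = 0.0649 to 0.167, and rTg4510 replicate 3 correlated slightly better with WT replicate 1 (0.0671). At 4 months r was -0.0999 to 0.124. Libraries of the same number thus deviated together at 2, 6 and 8 months but not throughout at 4 months, and the labels name no shared batch for this pairing. With 4 or 3 libraries per group, the SE of the 39 log2 changes had a median of 0.115 or 0.133 in the same order. The number of libraries, not a known depth, limits what can be seen.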
